A study of Mus musculus with 18 samples.

Results

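Interferon-stimulated genes are the genes a cell switches on after an interferon binds its receptor. A set of 43 of them was chosen by gene symbol, and all 43 were present among the 25651 genes of the deposited count table. RNA had been measured in pancreas of mice aged 20 weeks on a mixed 129Sv and C57BL/6 background, with 1 library per mouse. The 5 KPC ASC KO mice carried the KPC genotype together with loss of ASC, the inflammasome adaptor encoded by Pycard. The 7 KPC mice carried the KPC genotype with ASC, and the 6 WT mice carried neither. KPC commonly stands for mice in which a Cre recombinase active in the pancreas switches on engineered alleles and pancreatic tumours form, but the labels name neither the alleles nor the driver, and they do not say which part of Pycard was removed or in which cells. Sex, litter and histology were not given in the labels.

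Type I interferons signal through the kinases JAK1 and TYK2 to a complex that includes the transcription factors STAT2 and IRF9 and binds a DNA element called the ISRE. Interferon gamma signals through JAK1 and JAK2 to factors that bind a different element called GAS, and it induces an overlapping set of genes that includes large GTPases directed against intracellular pathogens. The products sense viral RNA, cut or block it, tag proteins with ISG15, or hold back virus particles at membranes, and several are made at a basal level in tissue without infection.

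The element through which type I interferon acts could be read in the promoters of several members. RefSeq promoter windows of build GRCm38.p6, from 250 bases before the transcription start to 50 bases after it, were matched by symbol for 32 of the 43 members. The ISRE core, GAAA followed by any 2 bases and GAAA, searched on both strands, stood in at least 1 window of 19 of these 32 members, or 59.4%, against 3.99% of all 27025 genes with a window. The GAS core, TTC followed by any 3 bases and GAA, which reads the same on both strands, stood in 10 of the 32 members, or 31.2%, against 9.55% of all genes. The members were chosen as interferon-stimulated genes, so these shares describe the set, and a match is not a measured binding site. Among the tested members with a window, 6 of 15 held the ISRE core, and Irf9, Irf7, Irf1 and Samd9l, which are described further on, had no match in theirs. The stretches below were picked because they hold the core; they lie upstream of the start in members whose values per mouse are given, and the capitals mark the core.
Bst2 (chr8:71537557-71537632, minus strand): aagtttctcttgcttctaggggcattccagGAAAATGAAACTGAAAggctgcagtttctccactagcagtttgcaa
Trim30a (chr7:104465194-104465259, minus strand): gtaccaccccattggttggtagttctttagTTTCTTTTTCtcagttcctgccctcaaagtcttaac
Irgm1 (chr11:48871421-48871480, minus strand): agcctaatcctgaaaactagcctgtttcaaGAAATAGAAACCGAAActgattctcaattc
Gbp7 (chr3:142530253-142530322, plus strand): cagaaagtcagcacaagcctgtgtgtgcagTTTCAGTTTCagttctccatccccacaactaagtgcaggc
Stat2 (chr10:128270248-128270315, plus strand): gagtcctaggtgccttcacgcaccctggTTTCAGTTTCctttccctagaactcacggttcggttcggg
Isg15 (chr4:156200845-156200926, minus strand): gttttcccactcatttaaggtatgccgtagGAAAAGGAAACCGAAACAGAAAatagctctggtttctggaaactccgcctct
The core overlapped itself in Bst2 and Irgm1, each with 2 matches, and in Isg15, with 3 matches. It began 30 bases before the start in Irgm1, 36 in Trim30a, 53 in Gbp7, 78 in Isg15, 130 in Bst2 and 222 in Stat2. Trim30a, Gbp7 and Stat2 carried it in the reverse orientation, as TTTC, 2 bases and TTTC.

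The libraries were shallow for genes of this kind. Totals ran from 374432 to 647947 counts of unique molecular identifiers (UMIs) in KPC ASC KO, from 452472 to 1626977 in KPC and from 294077 to 416879 in WT pancreas. After scaling by trimmed mean of M values (TMM), 1 count stood for 1.85 to 4.22 counts per 1000000 (CPM) in KPC ASC KO, 0.311 to 2.40 CPM in KPC and 3.40 to 5.16 CPM in WT libraries. All 43 members together held 203 to 806 counts per KPC ASC KO library, 473 to 3467 per KPC library and 183 to 286 per WT library. Only 20 members passed the filter on low counts and were tested, and 23 did not. The filter asks for about 10 counts, scaled to depth, in at least 5 libraries, so a member high in KPC alone could pass, and the 20 are not a neutral sample of the 43. Pycard, the targeted gene, averaged 19.9 ± 11.7 CPM in KPC ASC KO (SD, n = 5), 70.0 ± 24.2 CPM in KPC (SD, n = 7) and 58.6 ± 6.95 CPM in WT mice (SD, n = 6).

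Averaged over all 43 members, the interferon-stimulated genes were higher in KPC than in WT pancreas and stood between the 2 in KPC ASC KO pancreas. The score of a mouse is the mean log2 CPM of the 43 members with a prior count of 2. It averaged 3.73 ± 0.34 in KPC ASC KO (SD, n = 5), 4.29 ± 0.43 in KPC (SD, n = 7) and 3.39 ± 0.08 in WT mice (SD, n = 6). The lowest KPC score was 3.59, just above the highest WT score of 3.52. By the summed CPM of the same members the 2 groups overlapped. KPC mouse 43 held 946 CPM, inside the WT range of 857 to 986 CPM. The difference between KPC and WT means was 0.90, that between KPC ASC KO and KPC was -0.56, and that between KPC ASC KO and WT was 0.34. Without KPC mice 40, 89, 145 and 154 the first was 0.51 and the second -0.21. No test was made on the score, because the members were chosen with earlier results of these data known. Without a filter on low counts, the median fitted log2 change in KPC against WT was 1.38 over the 43 members and 0.60 over all 25651 genes. In bulk tissue, fewer cells of a type and less RNA per cell cannot be told apart.

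**Figure D1:**
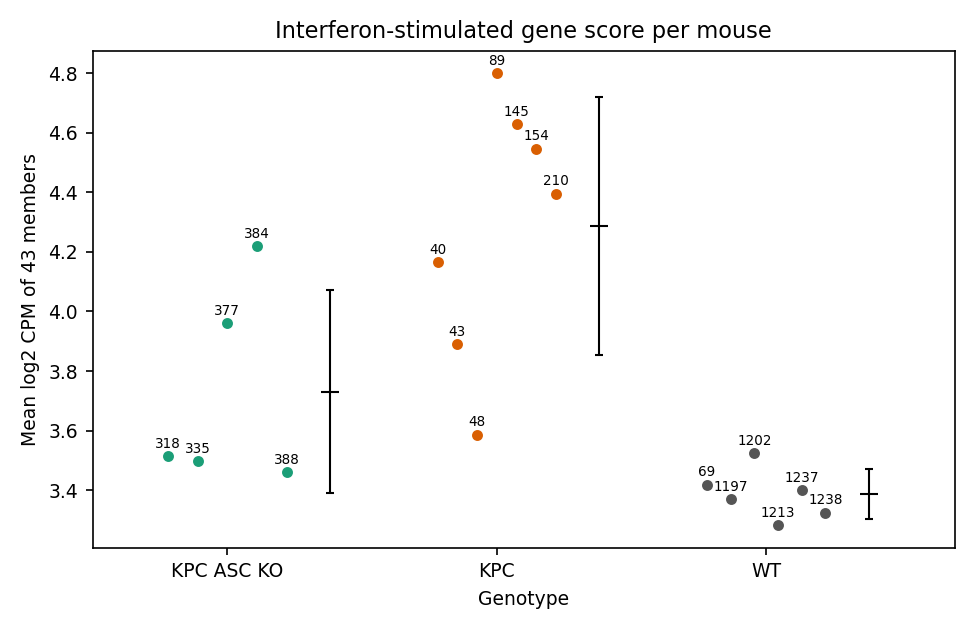
Mean log2 CPM of the 43 members in each mouse (points, with mouse numbers) for KPC ASC KO, KPC and WT pancreas, with the group mean and SD beside them. The KPC mice spread from 3.59 to 4.80, the WT mice stay between 3.28 and 3.52, and KPC ASC KO mice 377 and 384 stand above the other 3 of their group.

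The KPC mice differed widely among themselves. Mouse 89 scored 4.80, mouse 145 scored 4.63, mouse 154 scored 4.55 and mouse 210 scored 4.40. Mouse 40 followed with 4.17, and mice 43 and 48 had the lowest scores of 3.89 and 3.59. Mouse 89 had the highest level of any KPC mouse for 9 of the 20 tested members, and 16 of its 20 values lay above every WT mouse. Mice 43 and 48 each exceeded every WT mouse for 5 of the 20. Among the KPC ASC KO mice, numbers 388, 335 and 318 scored 3.46, 3.498 and 3.51, and numbers 377 and 384 scored 3.96 and 4.22. Mouse 384 exceeded every WT mouse for 13 of the 20 tested members, and mouse 318 for 1.

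**Figure D2:**
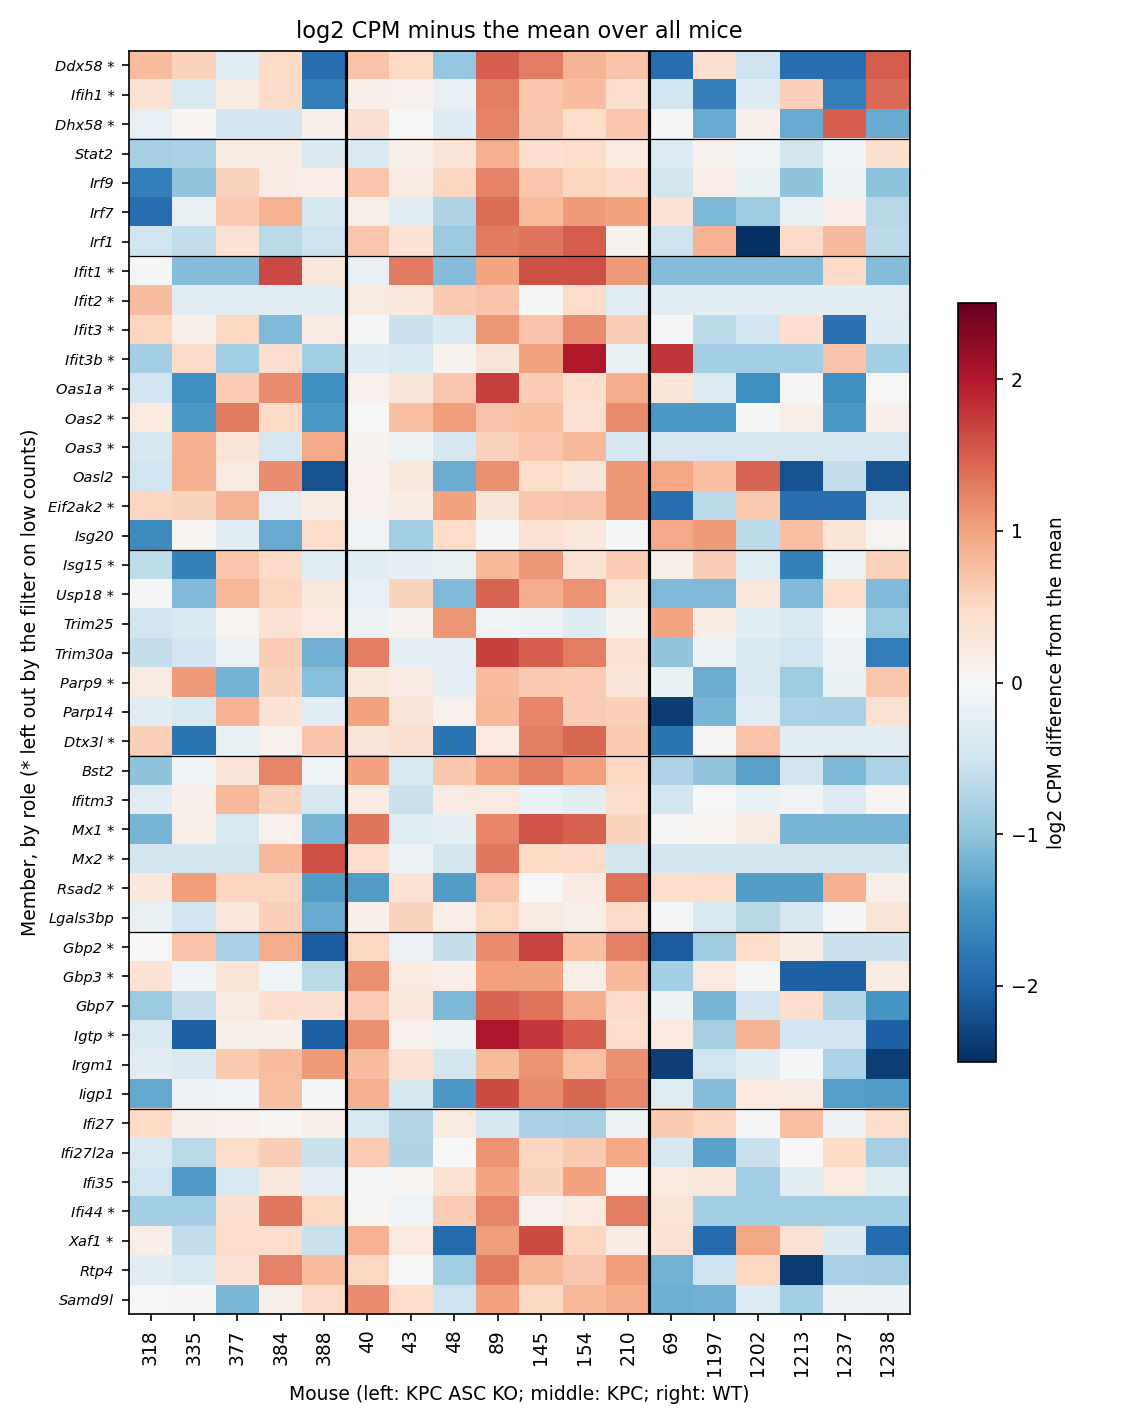
Each cell is a member's log2 CPM in 1 mouse minus its mean over all 18 mice, with members grouped by role (rows) and mice by genotype (columns, KPC ASC KO left, KPC middle, WT right); an asterisk marks the 23 members left out by the filter. Red runs through most rows in KPC mice 89, 145, 154 and 210, and Ifi27 goes the other way.

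Markers of other cells also differed between mice. The 10 macrophage markers, all 10 with counts in each group, summed to 863 to 2969 CPM in KPC ASC KO, 1941 to 3019 CPM in KPC and 854 to 1123 CPM in WT mice. The high KPC ASC KO mice 377 and 384 held 2969 and 2841 CPM of them, and the other 3 held 863 to 1091 CPM. The 9 fibroblast markers, all with counts in each group, summed to 934 to 3119 CPM in KPC ASC KO, 1598 to 3007 CPM in KPC and 814 to 1202 CPM in WT mice, with 3119 and 2914 CPM in KPC ASC KO mice 377 and 384 and 934 to 1060 CPM in the other 3. The 15 mitochondrial transcripts, a sign of RNA quality, summed to 6701 to 12147 CPM in KPC ASC KO, 3935 to 7375 CPM in KPC and 7760 to 10552 CPM in WT mice. KPC ASC KO mice 377 and 384 held 6808 and 6701 CPM of these, and the other 3 held 11725 to 12147 CPM. This order rests on the TMM scaling, since as a share of raw counts they were 0.658 to 0.749% in KPC ASC KO, 0.656 to 0.999% in KPC and 0.493 to 0.744% in WT mice. The 10 B cell markers, again all with counts in each group, summed to 145 to 236 CPM in KPC ASC KO and 121 to 194 CPM in WT mice. In KPC mice 145, 154, 89 and 40 they summed to 1144, 1133, 1005 and 631 CPM. KPC mice 210, 48 and 43 held 123, 93.6 and 27.7 CPM. KPC mice 89, 145 and 154, which had the highest scores, were among those with the highest B cell sums. KPC mouse 210 had a score of 4.40 with a B cell sum inside the WT range. KPC ASC KO mouse 377, with a score of 3.96, had the lowest B cell sum of its group. The 8 T cell markers summed to 37.1 to 101 CPM in KPC ASC KO, 28.3 to 501 CPM in KPC and 35.3 to 71.8 CPM in WT mice, with counts for all 8 in each group. KPC mice 40, 89, 145 and 154 held 357 to 501 CPM of them, and KPC mice 43, 48 and 210 held 28.3 to 70.5 CPM. Plasmacytoid dendritic cells are a classical source of type I interferon. Their 5 markers summed to 7.42 to 24.1 CPM in KPC ASC KO, where Klra17 was at 0, to 4.35 to 131 CPM in KPC and to 0 to 46.6 CPM in WT mice, where Pacsin1 was at 0. The same KPC mice 40, 89, 145 and 154 held 107 to 131 CPM of these markers, and KPC mice 43, 48 and 210 held 4.35 to 21.6 CPM. The 20 acinar markers, all with counts in each group, summed to 173664 to 589420 CPM in KPC ASC KO, 14207 to 262780 CPM in KPC and 355435 to 677511 CPM in WT mice, so the tissue was pancreas in every group. The part of these cell types and of RNA quality in the results was not tested.

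**Figure D3:**
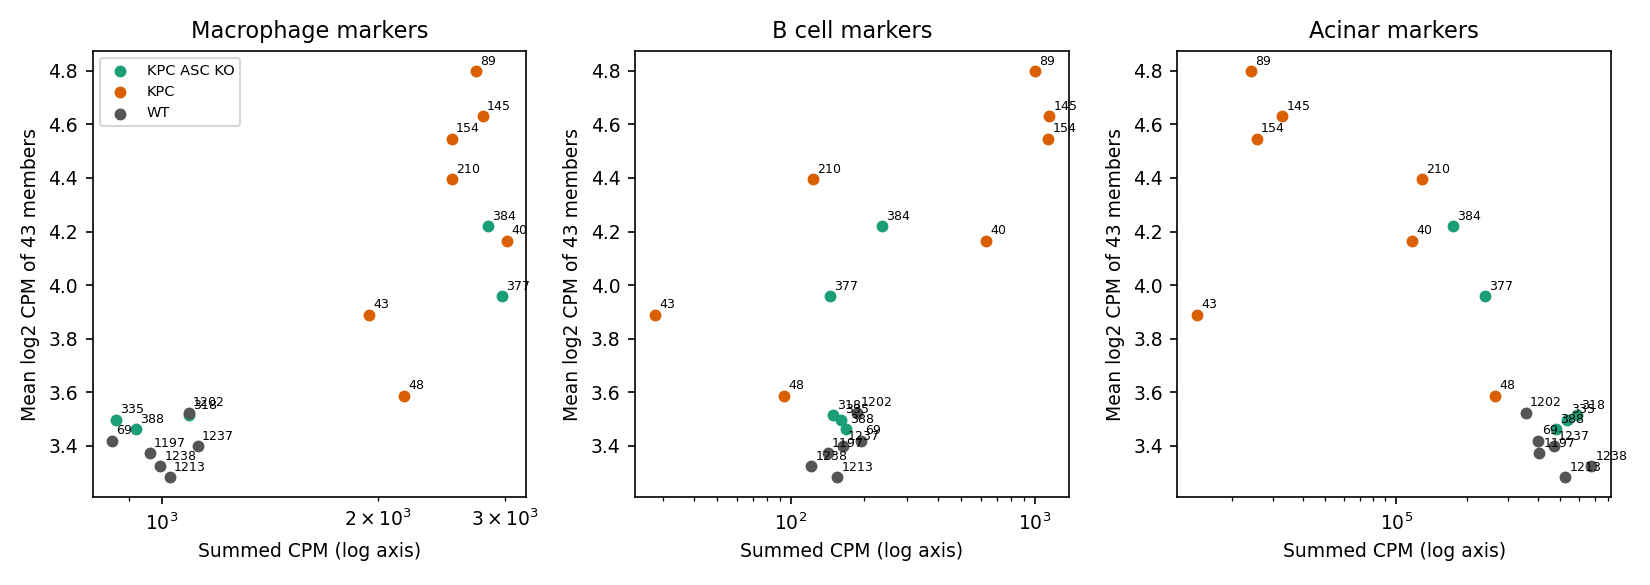
Score of the 43 members (mean log2 CPM) against the summed CPM of macrophage, B cell and acinar markers on log axes, 1 point per mouse. The KPC ASC KO mice with high macrophage sums, 377 and 384, have the high scores of their group. KPC mice 89, 145 and 154 are high in score and in B cell sum, and KPC mouse 210 scores 4.40 with a B cell sum of 123 CPM.

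KPC was compared with WT pancreas to ask what the tumour genotype changes in the organ. In KPC pancreas, 10 interferon-stimulated genes rose by log2 0.93 to 1.95, 1 fell, and 9 of the 20 tested did not pass. The gains were in an antiviral membrane protein, in interferon-inducible GTPases, in the signal component Irf9 and in a group of less studied induced genes, while the RNA-directed effectors that passed the filter did not pass the test. Over all 6920 genes tested by edgeR's quasi-likelihood test, 29.9% were called at an adjusted p under 0.05, 14.8% higher and 15.1% lower. The median log2 change was 1.00 over the 20 members and 0.06 over all tested genes. A filter on the mean raw count over all mice, which the deeper KPC libraries weigh on most, let 35 of the 43 members be tested, and 13 of them were called higher and 1 lower. Members high in KPC alone could pass this filter, so the added calls are not separate support. The share of all genes called under this filter is not given here, so these calls have no background beside them. The median log2 change was 1.16 over these 35 members and 0.13 over all genes that passed it.

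Transcription factors of the pathway come first. Irf9, the DNA-binding part of the STAT complex, stood at 8.55, 15.6, 38, 38.9 and 52.0 CPM in the 5 KPC ASC KO mice. It stood at 39.2 to 82.9 CPM (median 50.4) in KPC and at 15.1 to 37.9 CPM (median 26.8) in WT mice. All 7 KPC mice lay above all 6 WT mice, a separation shown by 3.77% of all tested genes in that direction. Irf9 rose by log2 1.08 in KPC against WT (SE 0.32, edgeR adjusted p = 0.0146). Stat2, the partner of IRF9, had 11.4, 11.7, 16.9, 26.0 and 26.0 CPM in KPC ASC KO mice, 16.9 to 44.1 CPM (median 28.8) in KPC and 15.5 to 30.3 CPM (median 20.9) in WT mice. The Stat2 groups overlapped, and its log2 difference of 0.47 between KPC and WT did not pass (SE 0.30, adjusted p = 0.241). Irf7, which amplifies type I interferon production, was measured at 2.85, 12.7, 15.6, 29.7 and 35.2 CPM in KPC ASC KO mice, at 9.60 to 52.1 CPM (median 32.9) in KPC and at 6.90 to 23.8 CPM (median 12.8) in WT mice. KPC mice 40, 43 and 48 lay within the WT range, and the log2 difference of 1.10 did not pass (SE 0.48, adjusted p = 0.0847). It passed without KPC mouse 43 (adjusted p = 0.0363) or KPC mouse 48 (0.0452). Irf1, an early target of interferon gamma and of NF-kB, had 14.8, 15.6, 16.9, 17.1 and 33.4 CPM in KPC ASC KO mice, 12.0 to 77.3 CPM (median 42.7) in KPC and 0 to 48.3 CPM (median 26.6) in WT mice. The difference between KPC and WT was 0.84 (SE 0.46, adjusted p = 0.172), and without KPC mice 40, 89, 145 and 154, those with the highest B cell sums, it turned to -0.024 (adjusted p = 0.983).

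The membrane-bound group held the clearest riser. Bst2 encodes tetherin, which holds budding virus at the cell surface and is also a surface marker of plasmacytoid dendritic cells in mice. Its levels were 17.1, 33.8, 35.2, 46.4 and 89.0 CPM in KPC ASC KO mice, 27.0 to 93.2 CPM (median 76.4) in KPC and 12.7 to 25.8 CPM (median 18.7) in WT mice. Every KPC mouse lay above every WT mouse, and Bst2 rose by log2 1.84 (SE 0.37, adjusted p = 0.000975). The rise was also called without KPC mice 40, 89, 145 and 154, at log2 1.27 (Bst2 adjusted p = 0.0494). Ifitm3, which blocks viral entry in endosomes, averaged 356 ± 134 CPM in KPC ASC KO (SD, n = 5), 312 ± 73.5 CPM in KPC (SD, n = 7) and 270 ± 36.1 CPM in WT mice (SD, n = 6). The differences of Ifitm3 did not pass in any of the 3 comparisons. Lgals3bp, a secreted glycoprotein that binds galectins, averaged 99.0 ± 45.8, 132 ± 18.5 and 92.7 ± 24.2 CPM in KPC ASC KO, KPC and WT mice, with a log2 difference of 0.52 between KPC and WT (SE 0.23, adjusted p = 0.0840).

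Of 6 interferon-inducible GTPases, which attack the vacuoles of intracellular microbes, 3 were tested, and all 3 rose in KPC against WT. Of all tested genes, 14.8% rose. Members high in KPC alone could pass the filter, so this count is not a result about the family. Irgm1, a regulator of this family and of autophagy, stood at 7.81, 8.55, 18.6, 20.4 and 25.3 CPM in KPC ASC KO mice, at 7.20 to 27.0 CPM (median 20.2) in KPC and at 0 to 10.3 CPM (median 6.01) in WT mice. It rose by log2 1.95 (SE 0.51, adjusted p = 0.00673), and KPC mouse 48 alone lay within the WT range. The depth behind it was 0 to 2 counts per WT library and 3 to 47 per KPC library. Gbp7, a guanylate-binding protein, had 8.55, 11.7, 22.3, 25.3 and 26.0 CPM in KPC ASC KO mice, 7.20 to 55.8 CPM (median 30.3) in KPC and 5.05 to 25.8 CPM (median 11.5) in WT mice, and it rose by 1.42 (SE 0.44, adjusted p = 0.0165). Iigp1, an effector GTPase that breaks open such vacuoles, had 5.70, 15.6, 16.7, 16.9 and 31.5 CPM in KPC ASC KO mice, 4.80 to 60.0 CPM (median 42.9) in KPC and 5.05 to 21.2 CPM (median 10.3) in WT mice. KPC mouse 43 stayed within the WT range of Iigp1 and mouse 48 just below it, while the other 5 KPC mice lay above it. It rose by 1.59 (SE 0.52, adjusted p = 0.0253), a call that ended when WT mouse 1197 (adjusted p = 0.0671), 1237 (0.0583) or 1238 (0.0595) was left out.

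Among the members linked to ISG15 and ubiquitin, Trim30a and Parp14 rose and Trim25 did not pass. Trim30a, a mouse TRIM protein that dampens NF-kB signalling, had 8.44, 14.2, 15.6, 20.4 and 37.1 CPM in KPC ASC KO mice, 19.0 to 80.2 CPM (median 59.3) in KPC and 5.05 to 20.7 CPM (median 16.2) in WT mice. KPC mice 43 and 48, at 19.0 and 19.2 CPM, lay within the WT range and the other 5 above it. Its rise was log2 1.71 (SE 0.44, adjusted p = 0.00546). Parp14, a mono-ADP-ribosyltransferase, had 7.81, 8.44, 8.55, 14.8 and 22.3 CPM in KPC ASC KO mice, 12.0 to 29.2 CPM (median 18.6) in KPC and 0 to 15.1 CPM (median 5.14) in WT mice. Parp14 rose by 1.77 (SE 0.48, adjusted p = 0.00763), on 0 to 3 counts per WT library. Trim25, the E3 ligase known for acting on RIG-I, averaged 21.1 ± 5.94 CPM in KPC ASC KO, 23.8 ± 10.9 CPM in KPC and 21.9 ± 11.9 CPM in WT mice, a log2 difference of -0.03 between KPC and WT (SE 0.33, adjusted p = 0.964). Isg15, the ubiquitin-like modifier itself, was too low to test in the fit. It had 0, 2.85, 4.22, 9.27 and 11.1 CPM in KPC ASC KO mice, 4.49 to 15.5 CPM (median 8.39) in KPC and 0 to 10.3 CPM (median 5.97) in WT mice. On log2 CPM its KPC mean exceeded its WT mean by 0.45, and a two-sided exact permutation over mice gave p = 0.292 (0.438 after adjustment over 3 comparisons).

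**Figure D4:**
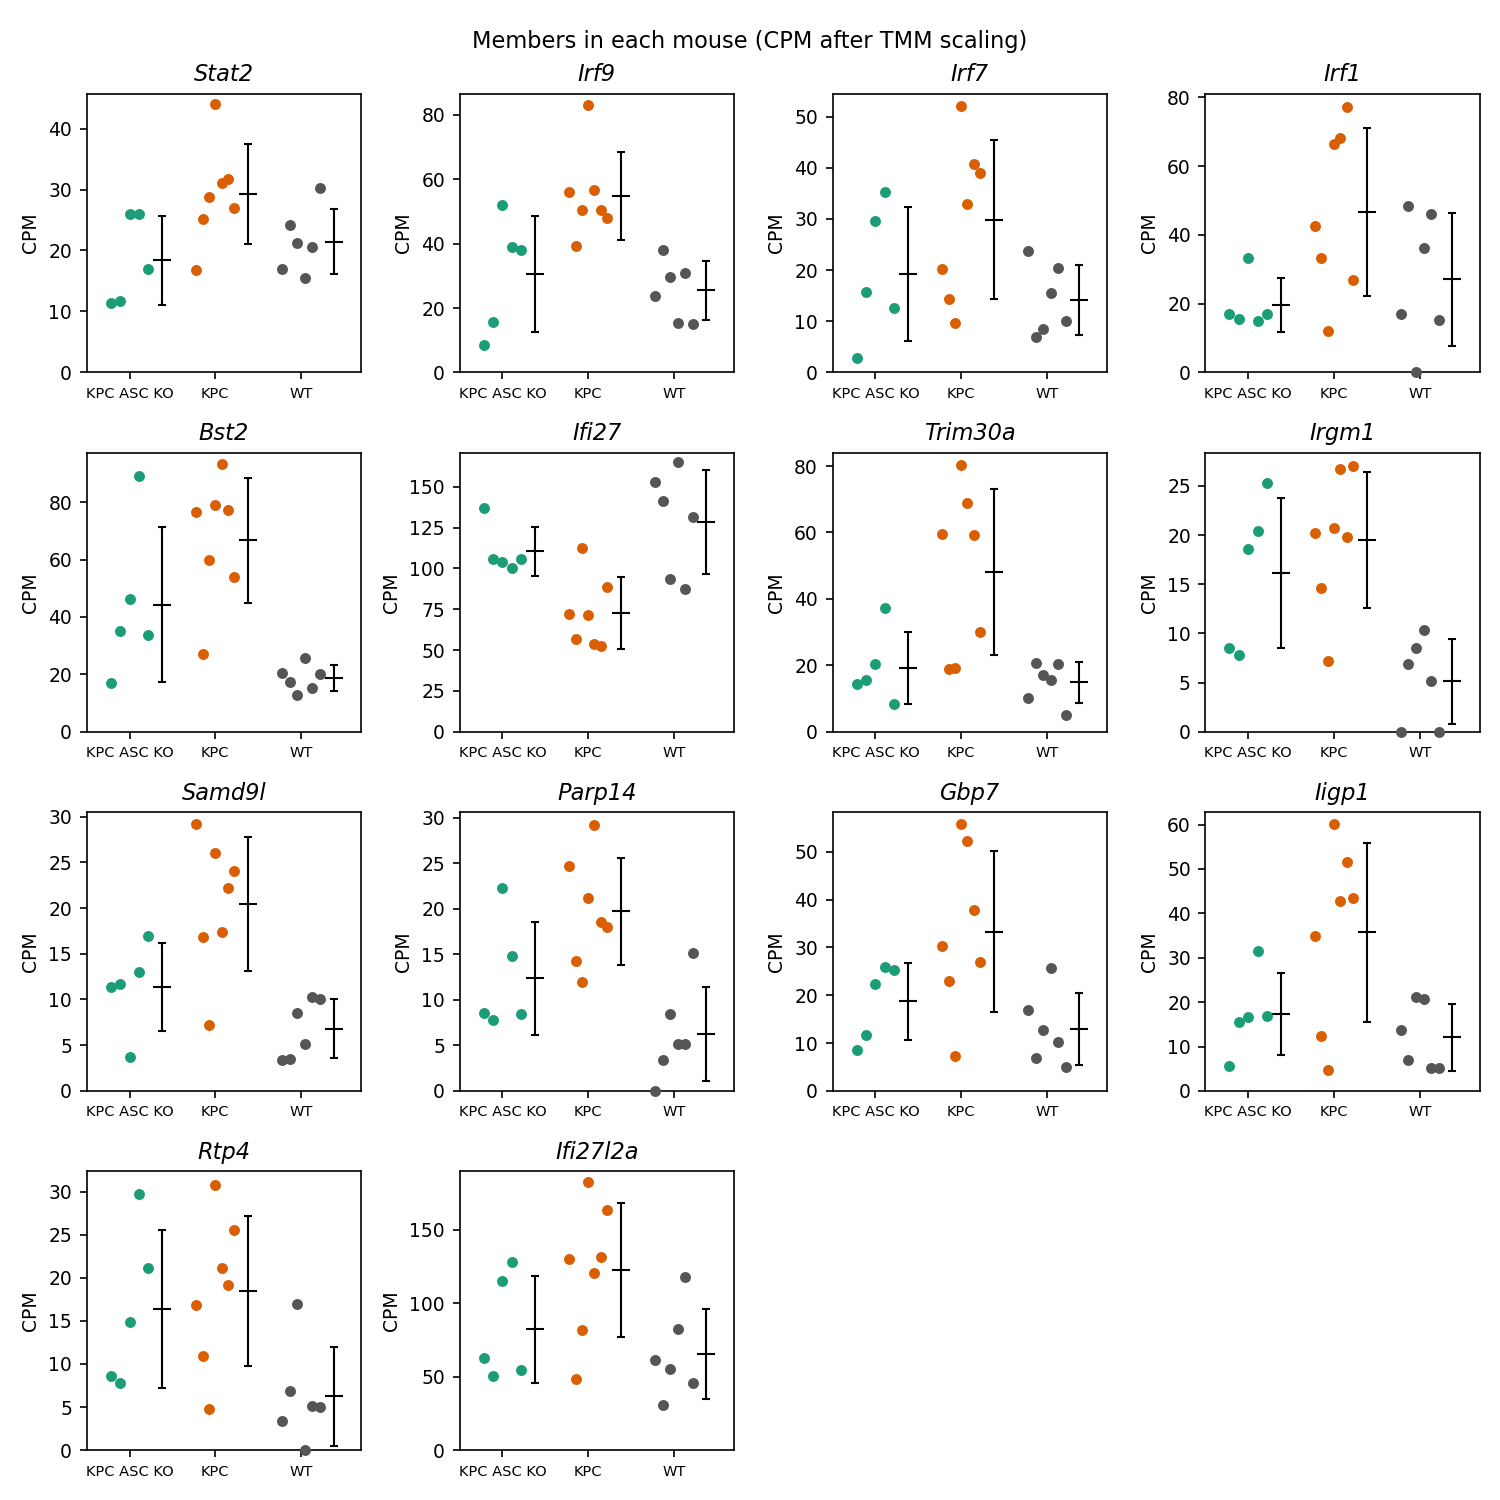
CPM after TMM scaling in each mouse (points) for 14 of the tested members, in KPC ASC KO, KPC and WT pancreas, with the group mean and SD. Bst2 and Irf9 separate all KPC from all WT mice, and Ifi27 is the one panel in which KPC lies lowest.

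The remaining induced genes moved in both directions. Samd9l, a restriction factor that can shut down translation, had 3.71, 11.4, 11.7, 13.0 and 16.9 CPM in KPC ASC KO mice, 7.20 to 29.2 CPM (median 22.2) in KPC and 3.40 to 10.3 CPM (median 6.82) in WT mice. Samd9l rose by log2 1.66 (SE 0.44, adjusted p = 0.00680), on 1 to 2 counts per WT library. Rtp4, a receptor transporter protein with antiviral activity, had 7.81, 8.55, 14.8, 21.1 and 29.7 CPM in KPC ASC KO mice, 4.80 to 30.8 CPM (median 19.2) in KPC and 0 to 17.0 CPM (median 5.09) in WT mice. Its rise of 1.55 (SE 0.54, adjusted p = 0.0324) rested on 0 to 4 counts per WT library and ended when WT mouse 69 (adjusted p = 0.0822), 1197 (0.0589), 1213 (0.0710), 1237 (0.0592) or 1238 (0.0609) was left out. Ifi27l2a had 50.8, 54.9, 62.7, 115 and 128 CPM in KPC ASC KO mice, 48.2 to 182 CPM (median 130.3) in KPC and 31.0 to 118 CPM (median 58.2) in WT mice. It rose by 0.93 (SE 0.33, adjusted p = 0.0368), and 7 mice each ended this call when left out, WT mice 69, 1197, 1202 and 1238 and KPC mice 40, 89 and 210, with an adjusted p between 0.0510 and 0.0944. Ifi27, its neighbour on chromosome 12 and a mitochondrial protein by report, was the member that fell. It had 100.2, 104, 105.5, 106 and 137 CPM in KPC ASC KO mice, 52.7 to 113 CPM (median 71.7) in KPC and 87.2 to 165 CPM (median 136) in WT mice. KPC mice 48 and 210 lay within the WT range and the other 5 below it, and Ifi27 fell by log2 0.86 (SE 0.20, adjusted p = 0.00300). Under scaling by total counts, which moved the median log2 change of all tested genes to 1.41, Ifi27 stood at 0.42, still below that median. Ifi35, which forms a complex with NMI, averaged 19.2 ± 8.52 CPM in KPC ASC KO, 36.5 ± 12.5 CPM in KPC and 24.3 ± 7.63 CPM in WT mice, and its difference of 0.58 between KPC and WT did not pass (SE 0.31, adjusted p = 0.162).

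The proteins that sense viral RNA and those that act on it were mostly too low to test. Of 10 RNA-directed effectors, Isg20 and Oasl2 passed the filter and neither passed the test. Isg20, an exonuclease, averaged 38 ± 22.3 CPM in KPC ASC KO, 50.4 ± 14.3 CPM in KPC and 70.5 ± 28.3 CPM in WT mice, with a log2 difference of -0.52 between KPC and WT (SE 0.31, adjusted p = 0.209). Oasl2 averaged 12.1 ± 9.85, 13.7 ± 7.28 and 12.1 ± 12.2 CPM in KPC ASC KO, KPC and WT mice (log2 0.11, SE 0.57, adjusted p = 0.907). The 3 cytosolic sensors had few counts: Ddx58, which encodes RIG-I, had 17 counts over all KPC ASC KO libraries, 164 over all KPC and 9 over all WT libraries. Ifih1, which encodes MDA5, had 13, 107 and 8, and Dhx58, which encodes their regulator LGP2, had 5, 68 and 5. In the same order, Ifit1, which binds RNA lacking host cap methylation, had 10, 107 and 1 counts, Ifit2 had 1, 15 and 0, Ifit3 had 15, 116 and 7, and Ifit3b had 3, 50 and 5. The sums are not scaled, and depth was greatest on average in KPC. After TMM scaling the mean library size was 384372 in KPC ASC KO (n = 5), 1478610 in KPC (n = 7) and 234421 in WT (n = 6). The sums therefore overstate the differences between KPC and the other groups. Ddx58, for example, averaged 8.53 ± 5.73, 14.5 ± 7.22 and 6.64 ± 9.98 CPM in KPC ASC KO, KPC and WT mice. No count in any WT library was seen for Ifit2, Oas3 or Mx2, which allows up to 2.13 CPM over the 6 libraries (3 counts, counting error only). Mx1 had 4, 91 and 3 counts in KPC ASC KO, KPC and WT libraries, and this gene is defective in C57BL/6 and most other laboratory strains. Rsad2, which encodes viperin, had 13, 62 and 7 counts. Again in that order, the RNA-directed members Oas1a, Oas2, Oas3 and Eif2ak2 had 14, 109 and 5, then 14, 91 and 3, then 3, 19 and 0, and 20, 114 and 5 counts. The ISG15-linked members Usp18, Parp9 and Dtx3l had 9, 76 and 2, then 25, 178 and 13, and 14, 133 and 8 counts. The GTPases Gbp2, Gbp3 and Igtp had 19, 178 and 8, then 17, 151 and 8, and 12, 239 and 10 counts. Mx2 had 4, 24 and 0, Ifi44 had 8, 41 and 1, and Xaf1 had 17, 150 and 10 counts. Scaled for depth, the mean was highest in KPC for the untested members other than Mx2, Oas3 and Rsad2. Without the filter, 17490 of all 25651 genes had an estimate above 0 in KPC against WT. Some of these differences were also within the SDs. Ifi44 averaged 4.56 ± 3.02 CPM in KPC and 3.44 ± 3.82 CPM in KPC ASC KO mice, and Parp9 16.4 ± 4.28 and 13.6 ± 10.0 CPM. Ifit2 averaged 1.41 CPM in KPC, below the 2.13 CPM that its WT libraries allow, so its order against WT is not settled. Mx2 averaged 2.43 ± 3.73 CPM in KPC ASC KO and 2.02 ± 2.22 CPM in KPC mice, Oas3 averaged 1.997 ± 2.04 and 1.59 ± 1.51 CPM, and Rsad2 averaged 6.45 ± 4.24 and 5.64 ± 5.19 CPM in the same groups, differences well within their SDs. Ifit3 and Ifit3b are near-identical neighbours, and Oas1a, Trim30a and the Gbp members sit in clusters of similar genes, so their counts depend on how shared reads were assigned.

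Without the filter on low counts, all 43 members were tested together with all 25651 genes, and 16 were called higher and 1 lower in KPC against WT, against 6.10% and 4.23% of all genes. The members added were Ifit1 (log2 3.54, edgeR adjusted p = 0.00676), Igtp (1.83, 0.00654), Gbp2 (1.76, 0.0189) and Eif2ak2 (1.85, 0.0489), besides the tested members Irf7 (1.25, 0.0243) and Lgals3bp (0.67, 0.0237). Igtp and Gbp2 are GTPases of the interferon gamma response, and Eif2ak2 encodes PKR, the kinase that stops translation on binding double-stranded RNA. The Ifit1 estimate sets 107 KPC counts against 1 WT count and is only loosely determined. The median over the 43 members was 1.38 and that over all genes 0.60 in this fit.

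Limma-voom called 3 of the 20 members in KPC against WT, Irgm1 and Parp14 higher and Ifi27 lower, and the other 8 lost their calls (adjusted p = 0.0545 for Samd9l to 0.304 for Iigp1). The share of all genes called by limma-voom is not given here, so these 3 calls have no background beside them. Without KPC mice 40, 89, 145 and 154, 15 members were tested and Bst2 was the 1 call. In that edgeR fit 752 of 5852 tested genes were called, 406 of them higher. The calls of Irf9 (0.81, adjusted p = 0.166), Trim30a (0.61, 0.420), Gbp7 (0.68, 0.409), Iigp1 (0.74, 0.456), Ifi27l2a (0.60, 0.362) and Ifi27 (-0.61, 0.106) were lost. Irgm1, Samd9l, Parp14 and Rtp4 were no longer deep enough to test.

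**Figure D5:**
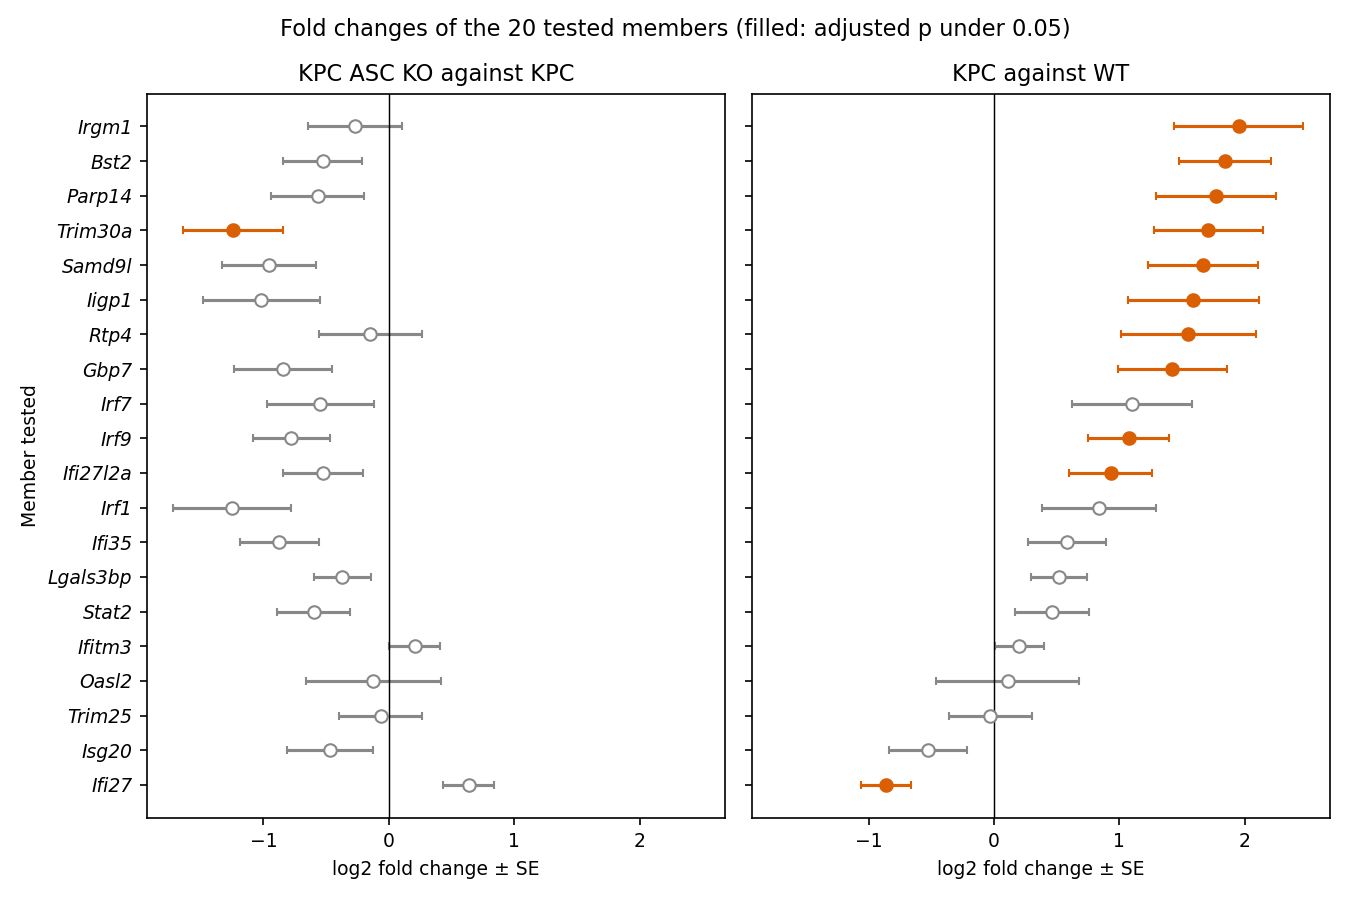
Log2 fold changes with SE of the 20 tested members in KPC ASC KO against KPC (left) and KPC against WT (right); filled orange points passed at an adjusted p under 0.05. The right panel has 10 filled points above 0 and 1 below, and the left panel has 1, Trim30a. Both panels use the same 7 KPC mice.

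KPC ASC KO was compared with KPC pancreas to ask what loss of ASC changes on the KPC background. In KPC ASC KO pancreas 1 of the 20 tested interferon-stimulated genes, Trim30a, fell in edgeR's test, none rose, and 19 did not pass. Trim30a fell by log2 1.24 (SE 0.40, edgeR adjusted p = 0.0491). The tools differed on this: DESeq2 called Trim30a lower (-1.27, adjusted p = 0.0465) and Ifi27 higher (0.65, 0.0352), and limma-voom called only Ifi27, higher (0.74, 0.0168), with Trim30a at -1.01 (0.263). Of all 6920 genes 9.42% were called, 2.69% lower and 6.73% higher, so 1 of 20 members is near the background. In none of the 20 did all KPC ASC KO mice lie below all KPC mice, which 1.05% of all genes did. The estimates of 18 of the 20 members were below 0 and 2 above it, while 46.2% of all genes were above 0, and the median was -0.54 over the members and -0.05 over all genes. At an unadjusted p under 0.05, 9 of the 20 members stood out, against 26.4% of all genes.

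The other estimates are given by role, and no difference between roles was tested. Among the transcription factors, Irf1 differed by -1.25 between KPC ASC KO and KPC (SE 0.47, adjusted p = 0.0934), Irf9 by -0.78 (SE 0.31, 0.106), Stat2 by -0.60 (SE 0.29, 0.187) and Irf7 by -0.55 (SE 0.43, 0.433). For Irf1, every KPC ASC KO mouse but 377 had 14.8 to 17.1 CPM, and every KPC mouse but 48, which had 12.0 CPM, lay above that range. Among the GTPases, Iigp1 differed by -1.02 (SE 0.47, adjusted p = 0.166), Gbp7 by -0.84 (SE 0.39, 0.166) and Irgm1 by -0.27 (SE 0.38, 0.685). Of the other members that had risen in KPC, Samd9l differed by -0.96 (SE 0.37, adjusted p = 0.103), Parp14 by -0.57 (SE 0.37, 0.341), Bst2 by -0.53 (SE 0.31, 0.292), Ifi27l2a by -0.53 (SE 0.32, 0.306) and Rtp4 by -0.15 (SE 0.41, 0.864). Ifi27 lay on the other side, at 0.64 (SE 0.21, adjusted p = 0.0517), and Ifi35 differed by -0.87 (SE 0.31, 0.0785). Among the members below the filter, Igtp had 12 unscaled counts over all KPC ASC KO libraries and 239 over the deeper KPC libraries. Scaled for depth, it averaged 4.85 ± 4.66 CPM in KPC ASC KO and 21.9 ± 13.2 CPM in KPC mice. In the fit without the filter Igtp was called lower at log2 -2.01 (adjusted p = 0.00632), 1 of 2 members called beside 1.32% of all genes. Igtp is named here because that fit called it.

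The Trim30a call was marginal. It ended on leaving out each WT mouse in turn (adjusted p between 0.0533 and 0.0613), and likewise without KPC mouse 40 (0.0740), 89 (0.0979), 145 (0.0840) or 154 (0.0794), and without KPC ASC KO mouse 318 (0.147), 335 (0.139), 377 (0.0881) or 388 (0.141), and without KPC mice 40, 89, 145 and 154 together the difference was -0.12 (adjusted p = 0.930). Members gained calls as well. These were Ifi27 without KPC mouse 48 (adjusted p = 0.00961) or 210 (0.0404), Irf1 (0.0322) and Samd9l (0.0429) without KPC mouse 48, Ifi35 without KPC mouse 43 (0.0429) or KPC ASC KO mouse 384 (0.0378), Irf9 without KPC ASC KO mouse 377 (0.0470), and Igtp, which then passed the filter, without KPC ASC KO mouse 377 (0.0465) or 384 (0.0438). All but Ifi27 were lower in KPC ASC KO.

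KPC ASC KO was also compared with WT pancreas. No interferon-stimulated gene passed in edgeR's quasi-likelihood test, where 0% of all 6920 genes were called, and none passed in limma-voom or DESeq2. Without the filter on low counts no member passed either, with 0.0312% of all genes called higher and 0.0156% lower. At an unadjusted p under 0.05 there were 5 members, against 9.99% of all genes. Of these, Bst2, Irgm1, Rtp4 and Parp14 were higher in KPC ASC KO. Isg20 was lower, at log2 -0.99 (SE 0.37, edgeR adjusted p = 0.381). Bst2, at 44.3 ± 27.1 CPM in KPC ASC KO (SD, n = 5) and 18.6 ± 4.57 CPM in WT mice (SD, n = 6), had a log2 difference of 1.31 (SE 0.41, adjusted p = 0.286). Irgm1, at 16.1 ± 7.67 and 5.14 ± 4.33 CPM in the same groups, had a difference of 1.68 (SE 0.59, adjusted p = 0.333). In Bst2 the KPC ASC KO mice other than 318 lay above all WT mice, and in Irgm1 those other than 318 and 335 did. The median difference was 0.41 over the 20 members and 0.00 over all genes. This comparison shares its 5 KPC ASC KO mice and its 6 WT mice with the other comparisons.

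The machinery upstream of these genes was read from separate lists. Of 11 interferon ligands listed, the table held Ifng, the gene of interferon gamma, with 1 count over all KPC ASC KO libraries, 1 over all KPC libraries and 0 over all WT libraries, and the other 10 were not analysed here. Of 5 tested receptor subunits, 4 rose in KPC against WT, where 14.8% of all tested genes rose. In KPC ASC KO against KPC 2 of the 5 fell, where 2.69% of all tested genes fell. Ifnar1, a subunit of the type I receptor, averaged 10.96 ± 4.89 CPM in KPC ASC KO (SD, n = 5), 28.5 ± 6.79 CPM in KPC (SD, n = 7) and 19.2 ± 11.7 CPM in WT mice (SD, n = 6). It fell by log2 1.31 in KPC ASC KO against KPC (SE 0.35, edgeR adjusted p = 0.0225). Ifnar2, its partner, averaged 24.1 ± 5.26, 46.7 ± 13.6 and 20.0 ± 7.85 CPM in KPC ASC KO, KPC and WT mice. It rose by 1.24 in KPC against WT (SE 0.29, adjusted p = 0.00325) and differed by -0.96 in KPC ASC KO against KPC (SE 0.28, adjusted p = 0.0325). Ifngr1 and Ifngr2, the receptor chains for interferon gamma, rose by 1.63 (SE 0.35) and 1.39 (SE 0.34) in KPC against WT.

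Stat3, which carries signals of the interleukin-6 family, averaged 63.3 ± 21.8 CPM in KPC ASC KO (SD, n = 5), 90.9 ± 19.1 CPM in KPC (SD, n = 7) and 44.96 ± 19.1 CPM in WT mice (SD, n = 6). Stat3 rose by log2 0.98 in KPC against WT (SE 0.26, edgeR adjusted p = 0.00645) and differed by -0.48 in KPC ASC KO against KPC (SE 0.25, adjusted p = 0.218). Of 7 tested inhibitors of the pathway, 3 rose in KPC against WT, beside 14.8% of all tested genes. None of the 7 passed in KPC ASC KO against KPC in edgeR, with 1 at an unadjusted p under 0.05. The risers were Ptpn6, the phosphatase SHP-1 of blood cells (1.67, SE 0.33), Socs3 (1.17, SE 0.40) and Ptpn2 (1.38, SE 0.52). Of 9 tested genes of interferon induction, 6 rose in KPC against WT and 1, Irf8, fell in KPC ASC KO against KPC. The shares of all tested genes were 14.8% and 2.69%. Irf8, a factor of B cells and myeloid cells, rose by 2.07 in KPC against WT (SE 0.55) and fell by 1.79 in KPC ASC KO against KPC (SE 0.54, adjusted p = 0.0479). Sting1, the adaptor of cytosolic DNA sensing, averaged 16.5 ± 9.78, 41.99 ± 21.3 and 10.6 ± 7.49 CPM in KPC ASC KO, KPC and WT mice and rose in KPC against WT (adjusted p = 0.00386), as did the toll-like receptor adaptor Myd88 (1.51, SE 0.44).

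Other genes known to respond to interferon, 49 in number and none of them a member, had 18 tested genes. Of these, 12 rose in KPC against WT and none fell, with a median of 1.28, beside 14.8% of all tested genes higher and a median of 0.06. In KPC ASC KO against KPC 2 fell, with a median of -1.08, beside 2.69% of all tested genes lower and a median of -0.05. This list too was chosen with earlier results known, and genes high in KPC alone could pass the filter. The 2 that fell were B2m, the light chain of MHC class I, by 0.99 (SE 0.27, adjusted p = 0.0271), and Tap1, the peptide transporter that feeds it, by 1.91 (SE 0.51, adjusted p = 0.0247). In KPC against WT, B2m rose by 1.18 (SE 0.26), Tap1 by 1.92 (SE 0.53), Slfn2, a lymphocyte quiescence factor, by 1.75 (SE 0.41) and Ifitm1 by 1.47 (SE 0.39).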

How the data were processed

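The deposited table held whole-number counts of UMIs per gene, not normalised, for 18 libraries of 1 mouse each. Per the labels' protocols, each cDNA got its sample index and UMI at poly(A) priming, samples were then pooled and amplified, and the sense strand was read. The submitters' processing notes name the builds GRCm38 and mm10 and the tools limma 3.50.0, edgeR 3.36.0 and R 4.1.2 with no role. Aligner and UMI counting rule: not given in the sources used here. Gene names and positions are those of the deposited table.

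The analysis used R 4.3.3 with edgeR 4.0.16. The function filterByExpr, at a minimum count of 10, left 6920 of 25651 genes, and libraries were scaled by TMM over these genes. The quasi-likelihood F test was fitted robustly to all 18 mice in 3 groups, without covariates, and Benjamini-Hochberg adjustment of p-values ran over the 6920 genes, also where the members alone are printed. A gene was called at an adjusted p under 0.05. The SE is the log2 fold change divided by the root of its F statistic. CPM are per 1000000 TMM-scaled counts. Alternatives used limma 3.58.1 and DESeq2 1.42.0. The code was tested on simulated counts with known changes.

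The members, the lists and the 4 KPC mice left out together were chosen with earlier results of these data known. Values per mouse are given for Stat2, Irf9, Irf7, Irf1, Isg15 and the members called in any comparison, up to 14 tested members in all, and for each other list up to 4 tested genes with the smallest p in any comparison. A gene outside the members that the rule names is not reported here, nor is the count over its list. Mouse numbers are not shared between groups, and each library is a separate mouse. Within a group the counts of every pair of libraries differed beyond sampling noise, with a chi-square of at least 2.35 per degree of freedom. The labels name no batch. The limit given for genes without a count covers counting error only. The SDs and the SEs also include the spread between mice.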

Additional observations from a re-analysis of the deposited data

Results flagged for a closer look

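In 3 of the 45 groups of values screened (14 members and the score in 3 genotypes), 1 mouse lay far from the others of its group, and chance flags about 1 group in 20. Irf1 stood at 33.4 CPM in KPC ASC KO mouse 377, and its next highest value in that group was 17.1 CPM. Ifi27 stood at 137 CPM in KPC ASC KO mouse 318, above a next highest value of 106 CPM. Irf9 stood at 82.9 CPM in KPC mouse 89, above a next highest value of 56.5 CPM.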

How the results depend on the processing

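The count of members called in KPC against WT, 11 in the main analysis, was 11 with DESeq2 size factors, with DESeq2 itself and with only the 2 groups compared, and 14 with the filter on mean counts. It was 19 under total counts, 17 without a filter, 3 in limma-voom and 1 without KPC mice 40, 89, 145 and 154, and 8 to 13 with 1 mouse left out. In KPC ASC KO against KPC, where 1 member was called, the count was 18 under total counts, 2 without a filter (both lower), 2 in DESeq2 (1 higher, 1 lower), 1 in limma-voom (Ifi27, higher, in place of Trim30a) and 0 with DESeq2 size factors, with the filter on mean counts, with only the 2 groups compared and without those 4 KPC mice, and 0 to 4 with 1 mouse left out. In KPC ASC KO against WT it was 0 under every alternative, those with 1 mouse left out included. Scaling by total counts moved the median of all genes to 1.41 in KPC against WT and to -1.14 in KPC ASC KO against KPC, and the number of all genes called to 5684 and 5193, against 2070 and 652. Measured from those medians, the members' median stood at 0.92 and -0.41, against 0.94 and -0.48 under TMM. With only the 2 groups compared, 192 genes were called in KPC ASC KO against KPC, and without those 4 KPC mice 752 were called in KPC against WT and 1 in KPC ASC KO against KPC. In KPC ASC KO against WT, where no gene was called, 12 were called without a filter, 8 in DESeq2, 8 with only the 2 groups, 4 without those 4 mice and 1 under total counts.

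The score difference between KPC and WT, 0.90, was 1.68 under total counts, 1.34 with a prior count of 0.5, 0.51 without the 4 KPC mice, and 0.81 to 1.02 with 1 mouse left out. That between KPC ASC KO and KPC, -0.56, was -1.30 under total counts and -0.21 without the 4 KPC mice, and -0.68 to -0.48 with 1 left out. That between KPC ASC KO and WT, 0.34, ran from 0.22 to 0.42 with 1 left out. Signs turned for Ifi27 under total counts (0.42 in KPC against WT, -0.42 in KPC ASC KO against KPC), for Irf1 in KPC against WT (-0.024), Irf7 (0.0071) and Bst2 (0.071) in KPC ASC KO against KPC without the 4 KPC mice, and for Rtp4 in KPC ASC KO against KPC without KPC ASC KO mouse 318 (0.033) or 335 (0.013; -0.53 to 0.033 over all mice left out). The cause of these changes was not tested. No paired analysis was possible because the groups share no replicate numbers. Depth limits the 23 members below the filter, most of which had fewer than 10 counts over all WT libraries.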
